A study of Mus musculus with 2 samples.

Results

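Skeletal muscle contractile and metabolic genes were followed in the skin of Pla2g2f-transgenic mice. The members were 42 genes listed by their role in muscle and matched to array probes by accession, symbol or synonym. All 42 had a probe, 80 probes in all, and 36 genes (60 probes) were measured. A gene counts as measured where the scanner software marked a probe of it as well above background in the control channel, the transgenic channel or both of array 1. Over the whole array 10456 genes or transcripts were measured. RNA came from the skin of 25-day-old Pla2g2f-Tg/+ mice and of littermate controls, both on a C57BL/6 background, pooled from 4 mice for each genotype. Pla2g2f encodes a secreted phospholipase A2. The labels do not name the promoter that drives the transgene. Each of 2 two-colour Agilent arrays carried the transgenic pool against the control pool, with the transgenic RNA in Cy5 on array 1 and in Cy3 on array 2. Nothing in the labels says that a second pair of pools was made for array 2. The mean of the arrays therefore counts as 1 replicate, the spread beside a value is technical, and no test across mice is possible.

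Mouse skin carries a sheet of skeletal muscle, the panniculus carnosus, below the dermis and its fat. A muscle fibre contracts when calcium released from the sarcoplasmic reticulum binds troponin on the thin filament and lets myosin heads pull on actin. Fibres differ in the isoforms of these proteins. Type IIb and IIx fibres use the heavy chains Myh4 and Myh1 and contract fast, IIa fibres use Myh2 and are fast and more oxidative, and type I fibres use Myh7 and are slow.

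All values are log2 ratios of transgenic over control unless a signal is named, and a gene was called when it differed 2-fold or more in the same direction on array 1 and on array 2. By this rule 389 of 10456 genes were higher, 3.72%, and 176 were lower, 1.68%. The log2 ratio of Pla2g2f itself was 0.54 on array 1 and 0.34 on array 2. The arrays differed from each other by a median of 0.24 over all measured probes and 0.32 over the muscle probes. On the deposited scale the median gene had a ratio of -0.0079. The 10 spike-in control probes, whose spread is not given here, had medians of 0.37 on array 1 and 0.59 on array 2. Every mean ratio is 0.48 lower when centred on these medians. The calls over all genes then divided into 159 higher and 451 lower. With array 1 processed by normexp and loess they were 107 higher and 56 lower, and the calls of Myh2 and Myh1 held. Skin RNA cannot tell apart fewer muscle fibres and less RNA per fibre. The labelled tissue was skin, and of its keratinocyte markers 7 of 7 were measured.

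Of the 36 measured members, 2 were higher by the rule, the heavy chains Myh2 and Myh1, and 0 were lower. That share is near the 3.72% of all genes. The median of the members was 0.05, with 0.03 on array 1 and 0.13 on array 2. The mean ratio lay within 0.5 of 0 for 31 members and above it for 5, Myh2, Myh1, Actn2, Casq2 and Mybpc1. The members were above 0 on both arrays for 15 genes, below 0 on both for 5, and of opposite sign for 16. Of all genes, 35.3% were above 0 on both arrays and 35.7% below 0 on both. At 1.5-fold, 3 members were higher (8.26% of all genes) and 0 lower (3.8% of all genes). Most muscle transcripts, such as Acta1, Myl1, Tnni2 and Ckm, thus lay near the median gene, and a few isoform genes lay apart.

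**Figure D1:**
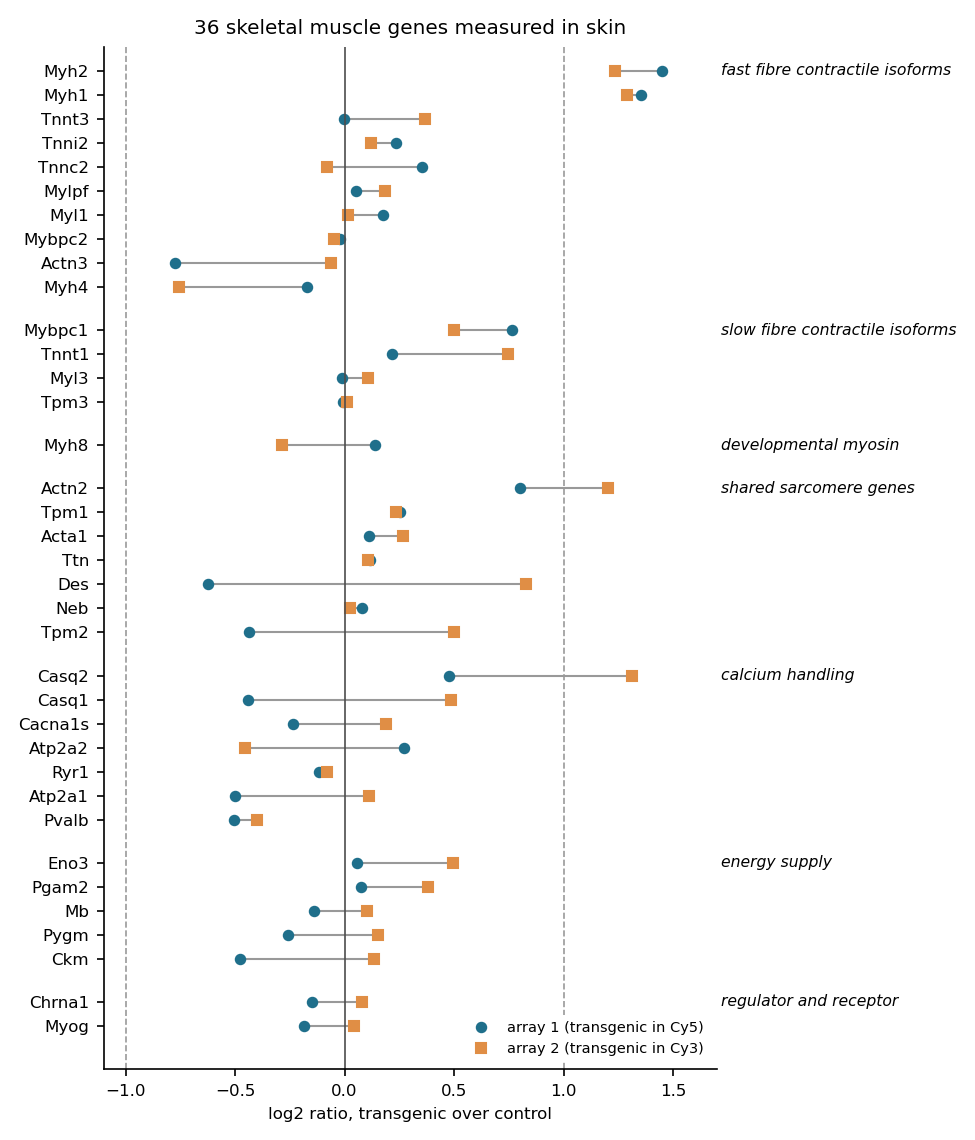
Log2 ratio of transgenic over control for the 36 measured muscle genes (rows, grouped by role) on array 1 (circles) and array 2 (squares); dashed lines mark 2-fold. Myh2 and Myh1 lie past 2-fold on both arrays, Actn2 and Casq2 on array 2, and most other genes lie near 0.

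The probes of the heavy chains matter because these genes are close relatives. The bright probe named Myh8 and the brightest Myh1 probe shared a run of 19 bases, the longest among 105 pairs of probes for different heavy chains. Stretches of 30 bases of each are shown with that run in capitals, bases 27 to 56 of the first and 1 to 30 of the second.
Myh8: gccgaGAGGTTCACACCAAAATCAgcgcag
Myh1: gGAGGTTCACACCAAAATCAtaagcgaaga
In their best alignment these probes matched at 22 of 30 bases. The longest run shared by a Myh1 and a Myh4 probe was 7 bases, and by a Myh2 and a Myh4 probe 12 bases. The second set is the aligned 30 bases of a Myh4 probe (bases 6 to 35) and a Myh3 probe (bases 1 to 30), with the 6 bases that differ in capitals.
Myh4: gaaCgtgCtgagGCtgcaggaCTtggtgga
Myh3: gaaTgtgTtgagATtgcaggaTCtggtgga
Over their whole overlap these probes matched at 40 of 55 bases. The Myh4 probe was well above background in both channels and the Myh3 probe in neither, so the spots read differently despite their likeness.

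Myh2, the heavy chain of IIa fibres, rose 2.54-fold. Its brightest probe (NM_001039545; mm8, chromosome 11, 67013645 to 67013704) read 17447 in the control channel and 47720 in the transgenic channel of array 1. The log2 ratios were 1.45 on array 1 and 1.24 on array 2, an SD of 0.15 between 2 arrays of the same comparison. The other 2 probes gave mean ratios of 1.27 and 1.15. One of them was just under 2-fold on array 1, at 0.98, and all 3 Myh2 probes lay above the range of every Myh4 probe.

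Myh1, the heavy chain of IIx fibres, rose 2.50-fold. Its brightest probe (NM_030679; mm8, chromosome 11, 67040631 to 67040690) read 44814 in the control and 114654 in the transgenic channel, with log2 ratios of 1.36 and 1.29. A second Myh1 probe was dimmer, at 769 and 981, and less even, with ratios of 0.35 and 1.04. The mean of both was 0.85 on array 1 and 1.16 on array 2, so Myh1 then missed the rule on array 1. The third probe named Myh1 (AK009974) lies, by the array design, on the strand opposite to the gene. Its ratios of 1.27 and 0.83 are therefore not counted as values of the Myh1 messenger RNA. It was the 1 such probe among 66 muscle probes whose strand could be compared with RefSeq. Centred on the spike-ins Myh2 lay at 0.86 and Myh1 at 0.84, still above 0 and below 2-fold, and 0 members passed.

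Myh4, the heavy chain of IIb fibres, did not follow. Its 2 probes read 227994 and 223330 in the control channel of array 1 and 202445 and 177598 in the transgenic channel. The log2 ratios of the brightest probe (NM_010855; mm8, chromosome 11, 67076527 to 67076586) were -0.17 and -0.76, and those of the other -0.33 and -0.60. Neither was 2-fold lower, and neither spot was saturated on array 1. Within each array, which removes any common scaling, Myh1 exceeded Myh4 by 1.53 on array 1 and 2.05 on array 2, in the mean a 3.45-fold difference of ratios. Myh2 exceeded Myh4 by 1.62 and 1.99, a 3.50-fold difference. Myh2 and Myh1 differed from each other by 0.10 on array 1 and -0.05 on array 2, less than the spread between the arrays.

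The developmental and slow heavy chains were mostly not measured. Myh3, the embryonic chain, and Myh7, the slow chain, each had 2 probes that were not well above background, with signals of 87.5 to 103 and 90.6 to 92.7 in the control channel. The lowest control signal well above background was 198. Of 4 probes for Myh8, the perinatal chain, 3 were equally dim, at 83.9 to 111. The remaining one, which holds the 19 shared bases shown above, read 198987 in the control and 219160 in the transgenic channel and had ratios of 0.14 and -0.28. The Myh8 probes thus disagree on whether the gene was detected, and whether another heavy chain transcript binds the bright one was not tested.

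**Figure D2:**
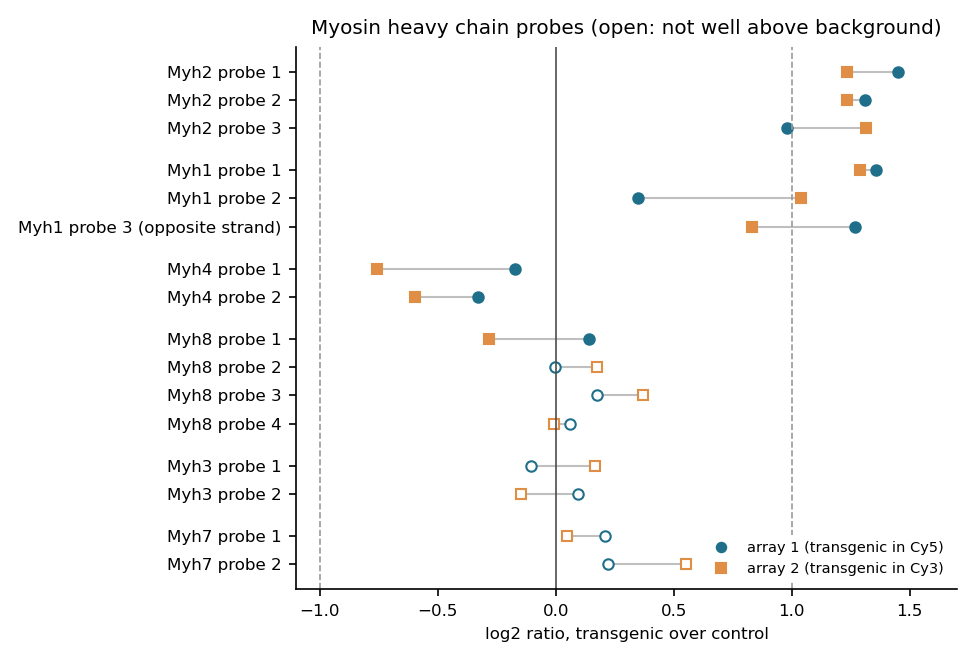
Log2 ratio of transgenic over control for the 16 probes of the 6 myosin heavy chain genes on array 1 (circles) and array 2 (squares); open symbols are probes that were dim in the control and the transgenic channel of array 1, and dashed lines mark 2-fold. All Myh2 and Myh1 probes lie above 0, including the Myh1 probe on the opposite strand, both Myh4 probes lie below 0, and 1 of 4 Myh8 probes is filled.

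Myh2, Myh1 and Myh4 stand next to each other in one gene cluster, and the first pair differed from the third. The 250 bases before the annotated start of each are shown on the plus strand of GRCm38.p6. The set of RefSeq windows used here held 36 of the 42 members. The positions are chr11:67170777-67171026 for Myh2, chr11:67199852-67200101 for Myh1 and chr11:67237562-67237811 for Myh4. Capitals mark matches on either strand to the E-box CANNTG, which MyoD family factors bind, the MEF2 site, the CArG box of serum response factor and the TATA box TATAAA.
Myh2: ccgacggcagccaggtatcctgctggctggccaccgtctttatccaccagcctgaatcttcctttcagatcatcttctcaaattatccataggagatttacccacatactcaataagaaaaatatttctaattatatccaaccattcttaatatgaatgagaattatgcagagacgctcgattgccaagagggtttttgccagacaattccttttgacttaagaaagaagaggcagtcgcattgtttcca
Myh1: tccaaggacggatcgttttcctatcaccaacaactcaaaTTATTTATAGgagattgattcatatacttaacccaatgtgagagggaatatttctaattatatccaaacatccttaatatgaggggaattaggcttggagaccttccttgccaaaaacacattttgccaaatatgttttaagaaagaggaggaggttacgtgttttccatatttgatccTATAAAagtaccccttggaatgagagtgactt
Myh4: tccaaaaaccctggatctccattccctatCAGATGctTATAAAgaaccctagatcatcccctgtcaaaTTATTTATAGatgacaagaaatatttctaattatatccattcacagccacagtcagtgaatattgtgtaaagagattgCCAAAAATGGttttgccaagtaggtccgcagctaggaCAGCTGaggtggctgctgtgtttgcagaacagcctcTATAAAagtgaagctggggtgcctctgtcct
The window of Myh4 held 2 E-boxes, 1 MEF2 site, 1 CArG box and 3 TATA boxes, that of Myh1 held 1 MEF2 site and 2 TATA boxes, and that of Myh2 held none (0) of the 4 motifs. In the windows of Myh4 and of Myh1, 1 TATA box lay inside the MEF2 site, on the opposite strand. Among 32841 such windows, 66.2% held an E-box, 2.92% a MEF2 site, 1.47% a CArG box and 12.4% a TATA box. These are matches of letters in one window and no measure of binding, and any link to the ratios was not tested.

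The remaining fast contractile genes lay near 0. The 10 fast genes, all measured, had a median of 0.13, and 5 were above 0 on both arrays, 3 below and 2 of opposite sign. The shares over all genes were 35.3% above 0 on both arrays and 35.7% below. The regulatory light chain Mylpf lay at 0.12, the essential light chain Myl1 at 0.10, the calcium sensor troponin Tnnc2 at 0.14, the inhibitory troponin Tnni2 at 0.18 and the tropomyosin-binding troponin Tnnt3 at 0.18. Their lowest and highest single-array values were -0.08 and 0.37. Mybpc2, the fast myosin-binding protein C, lay at -0.02 and -0.05. Actn3, the alpha-actinin of fast fibre Z discs, was below 0 on both arrays, at -0.77 and -0.06, with signals of 18123 in the control and 10599 in the transgenic channel of array 1, and did not pass.

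Of 8 slow contractile genes, 4 were measured, so the slow programme was seen only in part. Myh7, the light chain Myl2, the calcium sensor Tnnc1 and the inhibitory troponin Tnni1 had 6 probes, with signals of 90.6 to 102 in the control and 92.1 to 107 in the transgenic channel. A difference in these genes was not detectable at this signal. Mybpc1, the slow myosin-binding protein C, had ratios of 0.77 and 0.50, with signals of 1573 and 2673 in the control and transgenic channels. The slow troponin Tnnt1 had ratios of 0.22 and 0.75, with signals of 600 and 696. Both were above 0 on each array and short of 2-fold. Tpm3, a slow tropomyosin that other cell types also use, lay at 0.0036. Myl3 lay at 0.05 by its bright probe, while its other probe was not well above background. The median of the 4 was 0.26. Fast minus slow medians came to 0.01 on array 1 and -0.24 on array 2. With medians taken over the mean ratios of the genes, the difference was -0.14. Without the filter on dim probes that difference was 0.02, so the direction of the list contrast was not settled.

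There were 6 isoform pairs outside the heavy chains with both partners measured, each a slow or general form and a fast form, and 3 of them differed the same way by over 0.5 on each array. Actn2, the alpha-actinin of all fibres, exceeded Actn3 by 1.58 on array 1 and 1.26 on array 2, a 2.68-fold difference of ratios. Casq2, the calsequestrin of slow and cardiac muscle, exceeded Casq1, that of fast muscle, by 0.92 and 0.83, but its control signal was not well above background. Mybpc1 exceeded Mybpc2 by 0.79 and 0.55. Tnnt1 exceeded Tnnt3 by 0.22 and 0.38, a smaller difference in the same direction. The calcium pumps Atp2a2 and Atp2a1 differed by 0.77 and -0.57, and Myl3 and Myl1 by -0.19 and 0.09, so the arrays disagreed on the direction of both pairs. The pairs were chosen after values were seen, are described with no test, and share arrays and pools. How often other pairs of genes differ by as much was not computed.

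**Figure D3:**
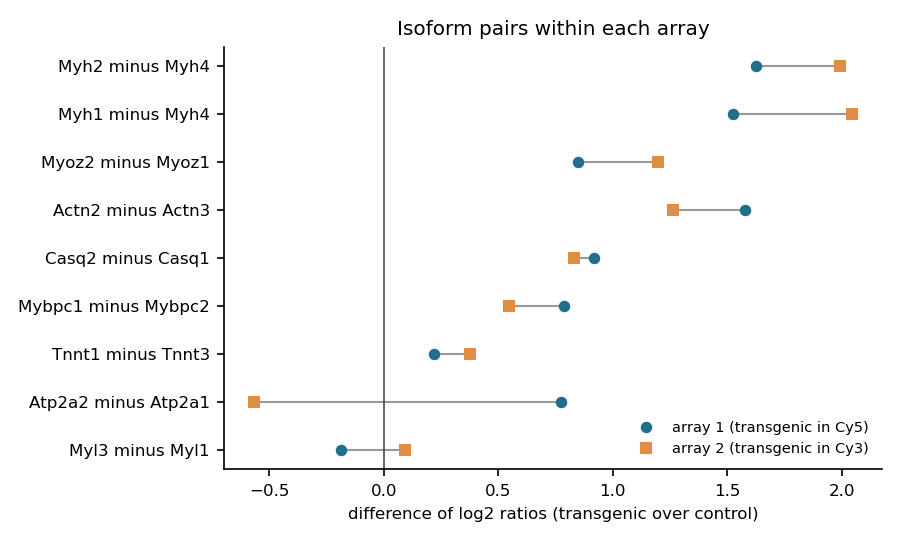
Difference between the log2 ratios (transgenic over control) of isoform pairs, first-named minus second-named gene, on array 1 (circles) and array 2 (squares). Pairs with Myh4, Myoz1, Actn3, Casq1, Mybpc2 and Tnnt3 lie to the right of 0 on both arrays, and the Atp2a and Myl pairs cross 0.

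Among the 7 sarcomere genes shared by fibre types, Actn2, which anchors actin at the Z disc, had the highest mean. Its signals were 2569 in the control and 4477 in the transgenic channel, with ratios of 0.80 and 1.20, so it missed the rule on array 1. The skeletal actin Acta1 lay at 0.19, nebulin (Neb), which runs along the thin filament, at 0.05, and titin (Ttn), the spring of the sarcomere, at 0.11. Titin had 9 probes along its gene. The probe nearest its 5′ end had ratios of 0.99 and 0.70, a mean of 0.84, and the other 8 had means from -0.31 to 0.16. The brightest titin probe lay 19.6 kb from that first one and gave 0.12 and 0.11. The first probe thus read differently from the other 8, in signals of 1202 and 2383 in the control and transgenic channels. Whether this holds for that end of the transcript was not tested.

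Tropomyosins, which cover the myosin sites of actin, are also made by smooth muscle and non-muscle cells. The brightest of 3 Tpm1 probes gave 0.25 and 0.23 and another 0.19 and 0.16, but the third gave -0.94 and -0.56, with signals of 4614 in the control and 2411 in the transgenic channel. Its probe means ran from -0.75 to 0.24. Of the 12 members with several measured probes, 3 had probe means over 0.5 apart, Tpm1, Ttn and Myh1, and of these Ttn alone exceeded 1. Tpm2 had ratios of -0.44 and 0.50 and the intermediate filament Des had -0.62 and 0.83, so the arrays disagreed on both. Over all probes 95% of array differences were below 0.84, and 3 members exceeded that, Des, Tpm2 and Casq1. Smooth muscle markers, which the tropomyosins and Des can share cells with, had a median of -0.20 over 10 of 10 genes. Their means ran from -0.66 to 0.28, and 6 were below 0 on both arrays, against 35.7% of all genes. The part of smooth muscle in the tropomyosin and Des values was not tested.

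Calcium handling genes had a median of -0.09 over 7 members, with -0.23 on array 1 and 0.11 on array 2. Casq2, which stores calcium in the sarcoplasmic reticulum, was highest, with ratios of 0.48 and 1.31. It was the 1 member well above background in the transgenic channel only, at 210 in the control and 293 in the transgenic channel, so its ratio on array 1 rests on a dim signal. Pvalb, the parvalbumin that buffers calcium in fast fibres, was lowest, at -0.50 and -0.40 with signals of 10000 and 7046, an SD of 0.07 between the arrays. Casq2 exceeded Pvalb by 0.98 and 1.71, a difference that picking the highest and lowest member makes large. Ryr1, the calcium release channel, lay at -0.10 by its brightest probe, with probe means from -0.26 to 0.15, and Cacna1s, the voltage sensor that opens it, at -0.02. The fast pump Atp2a1 had -0.50 and 0.11 and the slow and general pump Atp2a2 0.27 and -0.46, each of opposite sign on the arrays. Casq1 had -0.44 and 0.49.

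Energy genes lay close to 0. The 5 members, all measured, had a median of -0.02 and means between -0.17 and 0.27. The creatine kinase Ckm, which regenerates ATP, lay at -0.48 and 0.14, the oxygen store myoglobin (Mb) at -0.14 and 0.10, and the glycogen phosphorylase Pygm at -0.26 and 0.15. These 3 were of opposite sign on the arrays. The glycolytic enzymes Eno3 and Pgam2 were above 0 on both, at 0.05 and 0.49 and at 0.07 and 0.38. Myoglobin, which is abundant in oxidative fibres, thus did not share the 2-fold difference of Myh2.

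**Figure D4:**
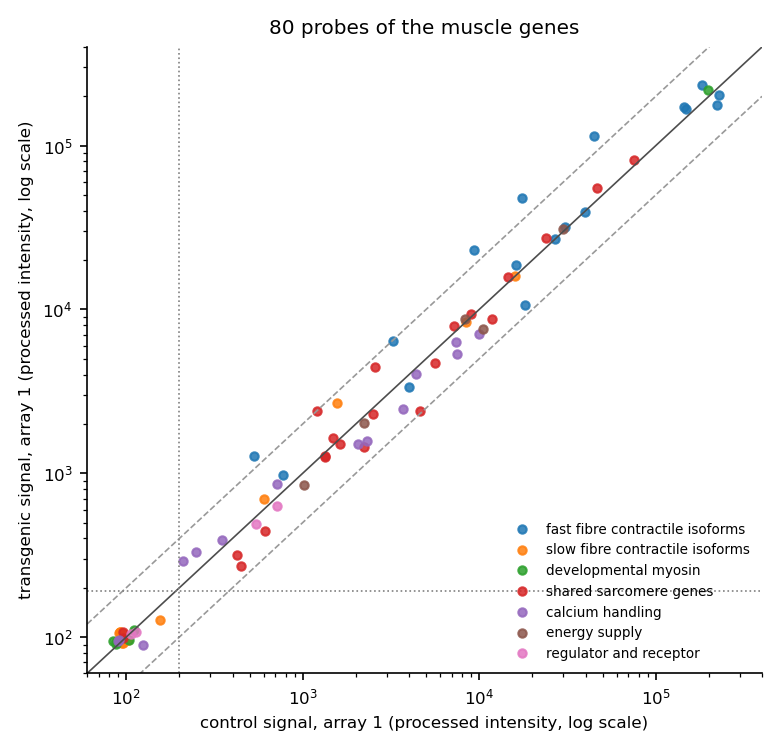
Transgenic against control signal on array 1 (processed intensities, both axes logarithmic) for all 80 probes of the muscle genes, coloured by role; the solid line marks equal signal, dashed lines 2-fold and dotted lines the lowest signal well above background (198 in control, 190 in transgenic). Most probes lie near the solid line over the whole range, 3 Myh1 and Myh2 probes on the strand of the gene and the opposite-strand Myh1 probe lie above the upper dashed line, and 20 probes cluster at background.

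Regulators of muscle identity and the endplate receptor were at low signal. Myog, a transcription factor of differentiating muscle, read 714 in the control and 628 in the transgenic channel, with ratios of -0.18 and 0.04. Chrna1, the alpha subunit of the acetylcholine receptor, read 542 and 489, with -0.15 and 0.08. Myod1 was not well above background, at 113 and 107. The 6 members not measured were Myh7, Myl2, Tnnc1, Tnni1, Myh3 and Myod1.

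Other muscle genes, 109 on 6 lists chosen by function with earlier results of these data known, were examined beside the members. Of 81 measured, 3 were higher by the rule, a share near the 3.72% of all genes, and 0 were lower. The median was 0.27, or -0.21 centred on the spike-ins. Csrp3, the muscle LIM protein of the Z disc, rose 3.20-fold, with ratios of 1.65 and 1.71 and signals of 873 in the control and 2742 in the transgenic channel. Ankrd2, a stretch-responsive ankyrin protein found mostly in slow fibres, rose 2.85-fold, at 1.42 and 1.60. Sln, sarcolipin, which inhibits the calcium pump, rose 2.49-fold, at 1.28 and 1.35. These 3 genes are not members, and each was alike on the arrays to within 0.2. Centred on the spike-ins Csrp3 and Ankrd2 lay at 1.20 and 1.03 in the mean and Sln at 0.83.

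Of 27 measured genes for sarcomere and Z disc, 21 were above 0 on both arrays and 2 passed, Csrp3 and Ankrd2, with a median of 0.29. Over all genes measured, 35.3% were above 0 on both arrays and 3.72% were higher by the rule. Myoz2, the calsarcin of slow and cardiac muscle, had ratios of 0.86 and 1.39 and missed the rule on array 1, while Myoz1, the calsarcin of fast fibres, chosen after its value was seen, lay at 0.01 and 0.20. Myoz2 exceeded Myoz1 by 0.85 and 1.20. The M-band protein Myom3 and the filamin Flnc, also chosen after their values were seen, had means of 0.97 and 0.96. Triad and excitation genes had a median of 0.22 over 16 of 24, with Sln followed by the caveolin Cav3 at 0.56 and Asph at 0.52. Energy genes outside the members had a median of 0.28 over 17 of 22, and 0 passed: the glucose transporter Slc2a4, which adipocytes also express, lay at 0.57, the transcription factor Mlxipl at 0.53 and the fatty acid binding protein Fabp3 at 0.49.

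The dystrophin complex list had a median of 0.16 over 7 of 10, with Sspn at 0.29 and dystrophin itself (Dmd) at -0.55 and -0.53. Dystrobrevin Dtna had ratios of 0.94 and 0.28, with a control signal of 195 that was not well above background. Satellite cell and myogenic genes had a median of 0.21 over 7 of 13, with the transcription factor Mef2d at 0.32 and the growth inhibitor Mstn at -0.25 and -0.66. Atrophy and stress genes had a median of 0.26 over 7 of 9, with the metallothionein Mt1 at -0.72, Trim55, a sarcomeric ubiquitin ligase, at 0.61 and Foxo1 at -0.37. None (0) of the members of these 3 lists passed.

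Markers of other skin cells differed between the pools in some lists. Over all genes measured, 3.72% were higher and 1.68% lower by the rule. Adipocyte markers had a median of 1.40 over 9 of 10 genes, and 7 were higher by the rule, with means from 0.57 to 2.08. Endothelial markers had a median of 0.78 over 4 of 6, and 1 of them, Vwf, was higher by the rule. Keratinocyte markers had a median of 0.61 over 7, and 2 were higher, Krt1 at 2.26 and Krt14 at 1.12. They were not of one direction: 4 were above 0 on both arrays, 2 below and 1 of opposite sign. The lowest was Dsg1a, with a mean of -0.73. Nerve and Schwann cell markers had a median of 0.63 over 5 of 7 and fibroblast markers one of 0.37 over 7, with 0 called in both lists. Hair shaft keratins had a median of -3.64 over 7 of 9, all 7 lower, and 3 of these were dim in the transgenic channel. Of 8 cardiac markers 1 was measured, Myl4, at 0.84, and it was well above background in the transgenic channel only (303 against 177). The other 7 were not well above background. The part of these cells in the muscle gene values was not tested. The differences between Myh2, Myh1 and Myh4 are within an array and do not depend on its scaling.

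**Figure D5:**
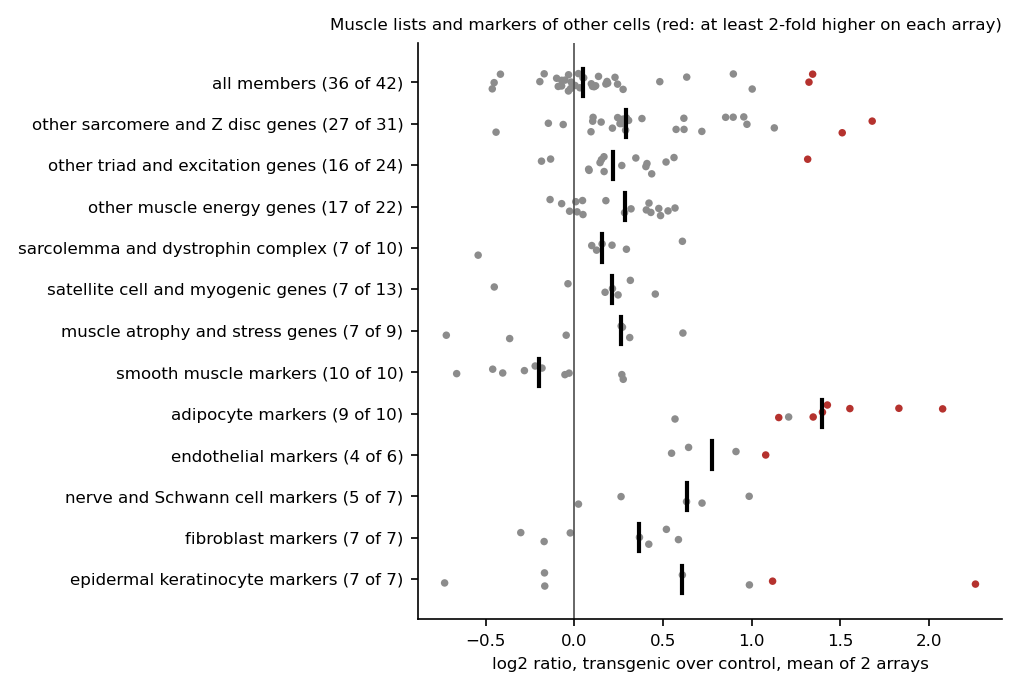
Mean log2 ratio over 2 arrays for each measured gene (points, displaced at random in height) of the members, 6 other muscle lists and 6 marker lists, with the number measured of those listed in brackets; black bars are medians and red points passed 2-fold on each array. The muscle lists centre between 0.05 and 0.29, the smooth muscle markers at -0.20 and the adipocyte markers at 1.40.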

How the data were processed

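Total RNA (500 ng) was labelled and hybridised, per the labels' protocols, and read with Agilent Feature Extraction 9.5.1.1, per the submitters' processing notes. Per the file headers, the deposited spot intensity values of array 1 were background-subtracted, detrended and dye-normalised (linear and LOWESS), with surrogates for dim spots, which compress ratios near background. The deposited value table holds 1 log10 ratio of Cy5 over Cy3 per array. Array 1 matched its processed signals. For array 2, whose scanner output was not used here, scale and direction were inferred: the columns correlated at -0.579 as deposited. Their log10 medians were 0.0145 and -0.0243, so neither was centred on its median. Ratios were converted to log2 and turned to transgenic over control. Control spots and 29 outlier spots were dropped, and repeated spots of 1 probe were averaged. The brightest measured probe stood for a gene. Probes were named through RefSeq (GRCm38.p6) by accession (24362), symbol (6306) or synonym (2424). The name on the array was kept for 8075. Probe coordinates are the array design's, on mm8. Exon and UTR annotation was not used here.

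With 1 pool per genotype no test was run. All measured members are named, as are up to 3 genes of each other muscle list with the largest absolute means and any called gene of those lists. The values of 1 gene chosen this way are not reported here. Members and lists were chosen with earlier results of these data known. The isoform pairs were chosen after values were seen. The number of arrays limits precision. Alternatives covered the dim-probe filter, centring, normexp (offset 50) with loess in limma 3.58.1, the probe rule, the fold and leaving out each array. A probe rule without opposite-strand probes was chosen after seeing the data.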

Additional observations from a re-analysis of the deposited data

How the results depend on the processing

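Centred on the spike-ins, the medians were -0.43 for the members, -0.35 for fast and -0.22 for slow contractile genes, -0.57 for calcium handling, -0.50 for energy supply and -0.21 for the other muscle genes, and 0 members passed 2-fold. With the mean of all probes 1 member passed, Myh2, also without opposite-strand probes, an alternative chosen after seeing the data. From single arrays 2 to 4 members passed (array 2 alone adds Actn2 and Casq2), as did 4 to 6 other muscle genes. Of all 10456 genes, 568 were then higher from array 1 alone and 520 from array 2 alone. The single-array medians ranged from 0.026 to 0.13 for the members, 0.068 to 0.12 for fast and 0.10 to 0.30 for slow genes. With normexp and loess the fast median was 0.094, Ankrd2 was no longer called, at 1.15, and over all genes 107 were higher and 56 lower, against 389 and 176. With dim probes kept, the slow median was 0.11 and that of the other muscle genes 0.21. At 1.5-fold on each array, 3 members and 8 other muscle genes were higher and 1 other muscle gene lower. Of all genes, 8.26% were higher and 3.8% lower at that fold. No member was called lower (0) under any alternative run. The cause of these shifts was not tested. No paired analysis was possible because the arrays form 1 group. Signal limits the slow isoforms: 20 of 80 muscle probes were not well above background.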
